A study of Mus musculus with 10 samples.

Results

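The genes of 4 signalling pathways that steer mesenchymal cells towards or away from the fat lineage were examined for N6-methyladenosine (m6A) peaks in 3T3-L1, a fibroblast line of the mouse that turns into fat cells under a hormone cocktail. A list of 48 genes was used, with 19 of the TGF-beta pathway, 10 of the BMP pathway, 8 of the Notch pathway and 11 of the Hippo pathway, out of 21951 protein-coding genes in the annotation. A member was counted as carrying a peak when at least 1 exonic base of a listed peak lay in its exons on its own strand (GRCm38, also called mm10). The gene symbol printed in the peak lists was compared with that placement but did not decide it.

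TGF-beta and activin ligands signal through paired serine/threonine kinase receptors to Smad2 and Smad3, and they hold preadipocytes back from the fat lineage, whereas BMP4 acts through BMP receptors and Smad1 and Smad5 to commit precursor cells to it. Notch receptors are cut after binding Jagged or Delta ligands on a neighbouring cell, and the freed part drives Hes and Hey genes together with Mastermind-like coactivators. In the Hippo pathway the kinases Lats1 and Lats2 keep the coactivators YAP and TAZ out of the nucleus, where they would otherwise bind TEAD factors and raise Ctgf and Cyr61.

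Methylated RNA immunoprecipitation and sequencing pulls fragmented RNA down with an m6A antibody (the IP) and reads it beside untreated fragments (the input). The 10 libraries were 1 IP and 1 input for each of 5 conditions. Cells given the solvent DMSO were taken as preadipocytes (DMSO Pre), in mitotic clonal expansion (DMSO MCE) and in differentiation (DMSO Diff), and cells given 20 µM rhein, an anthraquinone of rhubarb described as an inhibitor of the m6A demethylase FTO, between day 0 and day 3 were taken at MCE and Diff. Adipogenesis was induced with MDI medium after confluence, and the cells are a single established line, so they show 1 genetic background only. There was no second IP of any condition. Differences between lists therefore have no replicate check, and no test was made. The Wilson intervals given below cover counting error only. A peak also needs enough reads, so a gene without a listed peak is not shown to lack m6A. RNA levels and read depth per library are not in the peak lists, and fewer transcripts and less methylation per transcript cannot be told apart.

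Of the 5 deposited lists of peaks, 4 were treated as distinct. The rhein MCE and rhein Diff lists held 3067 identical spans. All 26 member peaks had the same span in both. Their scores differed by at most 0.017 in 25 of the 26, and the exception was Inhba, with a score of 5.47 in rhein MCE and 8.53 in rhein Diff. Both lists were counted as 1 sample, represented by rhein MCE and called rhein below, and the DMSO lists are called Pre, MCE and Diff. The numbers of peaks were 2824 in Pre, 5128 in MCE, 2944 in Diff and 3069 in rhein. The only measurement was a score. Its lowest value in each list was between 4.19 and 4.32. Its column is headed as a log2 fold change. It was read here as the negative log2 of an adjusted p-value, which makes the lowest values p-values of at most 0.0549. That reading could not be checked. If it holds, a higher score means a peak called with more certainty. The score was not used as a level of methylation. The strand of each peak was taken as listed, and how the caller set it is not given in the sources used here. Of the marker genes looked up, 6 of 8 for preadipocytes had a peak in some list, with 5 in Pre, 4 in MCE, 4 in Diff and 2 in rhein. None was found for the 8 adipocyte markers or the 8 markers of other cell types, in Diff as elsewhere. Over all protein-coding genes 17.0% had a peak in any list and 6.87% in Diff, so 8 genes are too few to read an absence.

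Of the 48 members, 25 (52.1%) had a peak in at least 1 of the 4 lists, and they carried 102 peaks in all. Over all protein-coding genes that share was 17.0%. The members with a peak numbered 15 (31.2%) in Pre, 20 (41.7%) in MCE, 8 (16.7%) in Diff and 13 (27.1%) in rhein. Over all protein-coding genes the shares were 7.03% in Pre, 12.7% in MCE, 6.87% in Diff and 7.62% in rhein. The member share was above that of all genes in each list. The lower end of its interval was 19.9% in Pre, 28.8% in MCE, 8.70% in Diff and 16.6% in rhein. The members were chosen with earlier results of these data known, so these intervals do not test whether pathway genes carry more peaks. The MCE list was the longest, and cut to the 2824 highest scores of each list the members with a peak were 15 in Pre, 14 in MCE, 8 in Diff and 12 in rhein, so that MCE no longer stood above Pre. All genes then gave 7.03%, 7.72%, 6.64% and 7.07%. The members also had longer mRNAs. Their longest coding transcripts had a median of 5355 bases, against 2713 over all protein-coding genes and 3663 over those with a peak. The part of length and of RNA level in these shares was not tested. Among the members themselves, the 25 with a peak had a median of 5528 bases and the 23 without one 5191.

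**Figure D1:**
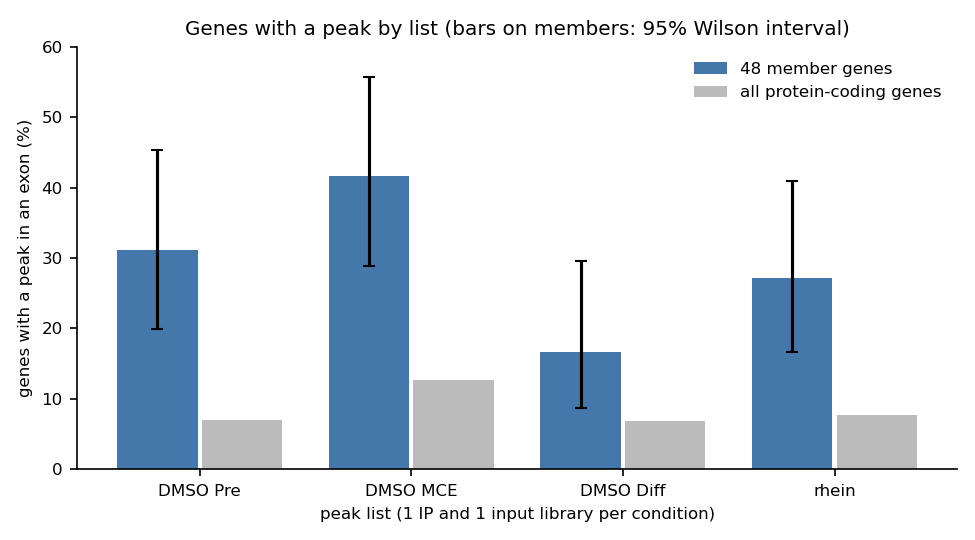
Share of genes with at least 1 peak in an exon, in percent, for the 48 members (blue, with 95% Wilson intervals) and for all protein-coding genes (grey) in each of the 4 lists. The members stand highest in MCE at 41.7% and lowest in Diff at 16.7%, and all genes range from 6.87% to 12.7%. With lists cut to equal length MCE has 14 members and Pre 15. The members were chosen with earlier results of these data known.

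Lists of different length were set against genes with a peak. Taken against the 3724 protein-coding genes with a peak in any list, the list held 41.5% in Pre, 75.1% in MCE, 40.5% in Diff and 44.9% in rhein. The 25 members gave 60.0% (40.7% to 76.6%) in Pre, 80.0% in MCE, 32.0% (17.2% to 51.6%) in Diff and 52.0% in rhein. Each of these intervals held the value of all genes, so no difference was detectable with 25 genes. Of the 25, 4 (16.0%) had a peak in every list, beside 15.5% of all genes with a peak. A peak in a single list was found for 8 (32.0%), beside 1674 of the 3724.

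The Hippo pathway had the largest share of members with a peak in any list, 8 of 11, followed by Notch with 4 of 8, TGF-beta with 9 of 19 and BMP with 4 of 10. The intervals of these 4 shares overlapped, from 43.4% to 90.3% for Hippo and from 16.8% to 68.7% for BMP. By list the TGF-beta members with a peak went from 5 in Pre to 8 in MCE and 2 in Diff, with 5 in rhein. Notch members went from 2 to 4 to 0, with 1 in rhein. The interval of 0 of 8 in Diff reached 32.4% and held the 6.87% of all genes. Of 36 other Notch genes, 3 had a peak in Diff. Hippo members numbered 6, 5 and 3 in the DMSO lists and 4 in rhein, and BMP members 2, 3 and 3, with 3 in rhein.

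**Figure D2:**
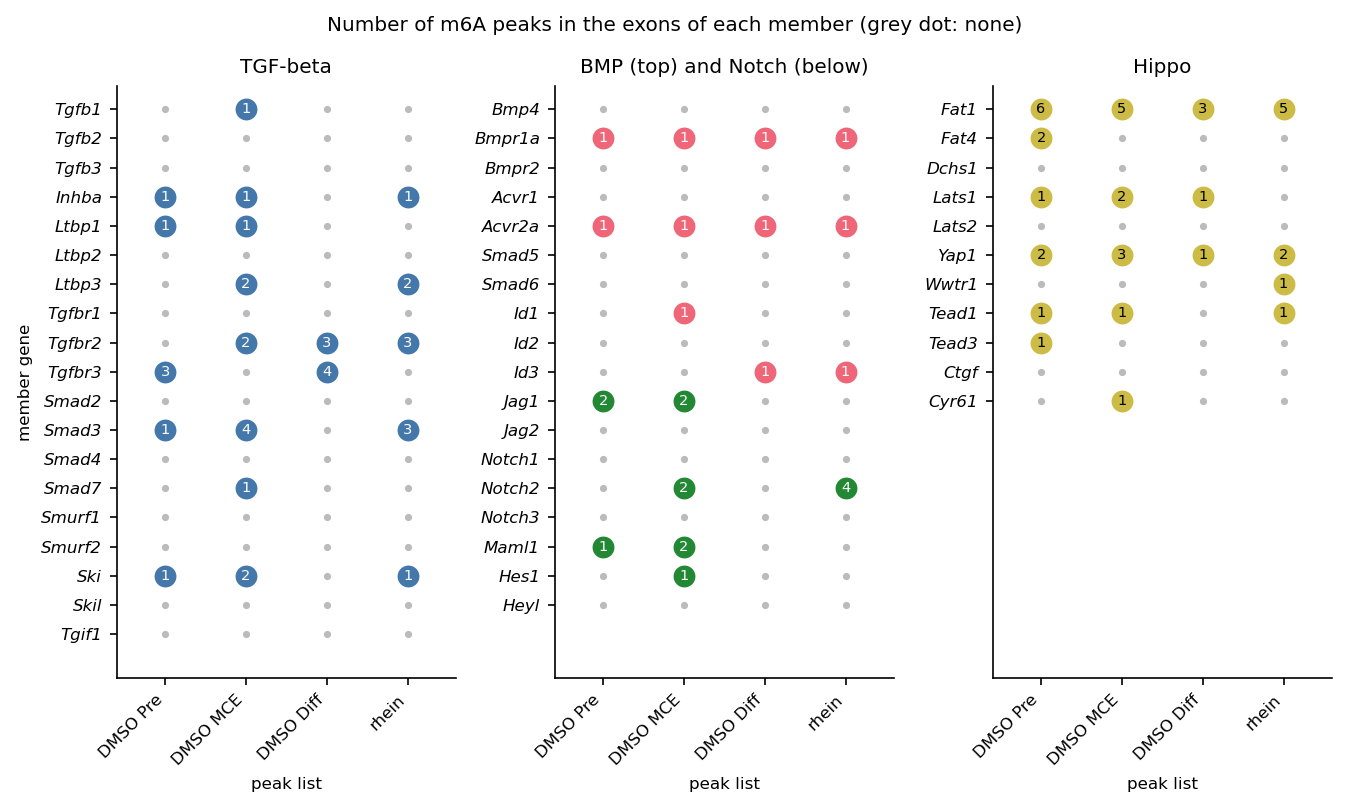
Number of peaks in the exons of each of the 48 members (rows) in the 4 lists (columns), by pathway. A grey dot marks a member without a listed peak. Acvr2a, Bmpr1a, Fat1 and Yap1 have a peak in all 4 lists, and none of the 8 Notch members has one in Diff. Of all protein-coding genes, 6.87% have a peak in Diff.

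The 4 members with a peak in every list were the BMP and activin receptors Bmpr1a and Acvr2a, the atypical cadherin Fat1, a cell-surface protein upstream of Hippo signalling, and Yap1, which encodes the coactivator YAP. In Acvr2a, Bmpr1a and Yap1 a stretch was under the peak of all 4 lists, and those of Acvr2a and Yap1, which hold GGAC in or beside them, are shown as the most constant sites among the members. The Acvr2a stretch is the last part of the coding sequence with its stop codon, at chr2:48899734-48899788 on the plus strand, and a 30-base site behind it at chr2:48899801-48899830. The Yap1 stretch is coding sequence in 1 exon at chr9:7934524-7934673 on the minus strand. Capitals mark GGAC, the core letters of the usual m6A motif, read on the sense strand.
Acvr2a coding end: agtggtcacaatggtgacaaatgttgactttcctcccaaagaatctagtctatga
Acvr2a 3′ UTR site: ctgtacacactgaGGACtgGGACtctgaac
Yap1 coding sequence: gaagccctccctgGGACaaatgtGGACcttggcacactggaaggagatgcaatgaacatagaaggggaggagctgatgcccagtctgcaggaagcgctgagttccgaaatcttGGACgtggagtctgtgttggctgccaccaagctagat
The coding end of Acvr2a held no GGAC, the site behind it held 2 and the Yap1 stretch held 3.

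Among the receptors, Acvr2a, a type II receptor that binds activins and BMPs, had 1 peak in each list, around the stop codon. The peak ran from 48899659 to 48899933 in Pre with a score of 6.27 (rank 1978), from 48899709 to 48899933 in MCE with 10.3 (rank 879), from 48899734 to 48899833 in Diff with 9.64 (rank 1011) and from 48899659 to 48899833 in rhein with 13.8 (rank 546). Its midpoint lay between 43 bases before and 32 bases after the end of the coding sequence. The peak stood 70.0% down the list in Pre and between 17.1% and 34.3% in the others.

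Bmpr1a, the type I receptor through which BMP4 and BMP2 signal, also had 1 peak per list at the stop codon. On chr14 and the minus strand it covered 34414434 to 34414558 in Pre with a score of 11.2 (rank 711), 34414359 to 34414633 in MCE with 11.99 (rank 621), 34414459 to 34414558 in Diff with 8.89 (rank 1225) and 34414434 to 34414558 in rhein with 9.67 (rank 993). The span was the same in Pre and rhein. No GGAC was in any of these 4 peaks. In the lists the symbol beside each of them was Mmrn2, a neighbouring gene, so a search by symbol misses Bmpr1a entirely.

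Yap1 had 8 peaks, with 2 in Pre, 3 in MCE, 1 in Diff and 2 in rhein. The peak towards the end of its coding sequence scored 15.1 in Pre (rank 381), where it ran from 7934499 to 7936530, 8.45 in MCE (rank 1479), 9.88 in Diff (rank 939) and 9.08 in rhein (rank 1133). In Diff and rhein it had 1 span, from 7934524 to 7936530 across an intron. A second peak in the 3′ UTR was listed in Pre, MCE and rhein and not in Diff, and another in the 5′ UTR, at chr9:8004421-8004495, in MCE with a score of 7.06 (rank 2759).

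Fat1 had the most peaks of any member, 19 over the 4 lists in 12 separate regions, all in the coding sequence. There were 6 in Pre, 5 in MCE, 3 in Diff and 5 in rhein. Its longest coding transcript has 14814 bases. Near the start of the coding sequence, at chr8:44950671-44950920, Pre had a peak of score 9.87 (rank 925) and MCE one of score 8.41 (rank 1505). Diff had 50 bases inside it, with 8.27 (rank 1473), and rhein had 2 shorter peaks on either side of those 50 bases, with 5.91 (rank 2693) and 6.16 (rank 2570). The Diff and rhein peaks thus did not overlap each other. Close to the end of the coding sequence, a region at chr8:45050828-45051052 was listed at all 3 DMSO stages, with scores of 6.35 in Pre, 7.23 in MCE and 7.29 in Diff, and was not in the rhein list. The part common to the 3 stages, at chr8:45050853-45051002 on the plus strand, holds 1 GGAC.
Fat1 coding sequence: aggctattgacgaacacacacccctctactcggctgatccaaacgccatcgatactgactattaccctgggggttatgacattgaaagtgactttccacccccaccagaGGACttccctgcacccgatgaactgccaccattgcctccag
Over all 19 peaks the score ran from 4.30 to 10.0. Most Fat1 regions were seen once, 9 of the 12, among them chr8:45040726-45040875 in Pre with a score of 10.0 (rank 898).

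**Figure D3:**
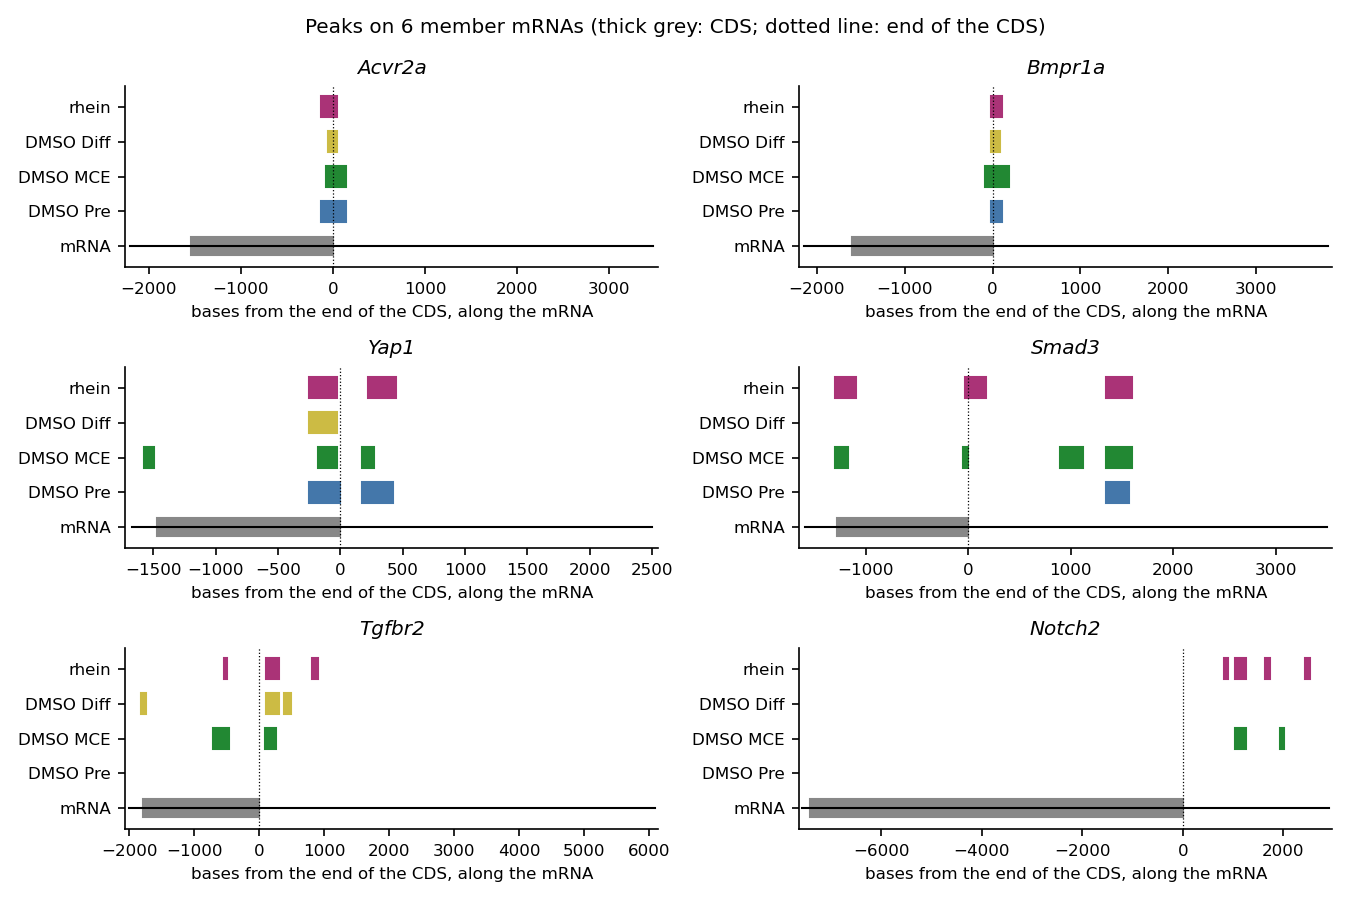
Peaks of 6 members drawn along their longest coding mRNA, in bases from the end of the coding sequence (CDS, dotted line), with 1 row per list. The Acvr2a and Bmpr1a peaks of all 4 lists sit on the end of the CDS, the Notch2 peaks lie in the 3′ UTR in MCE and rhein, and Smad3 has no peak in Diff.

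Of the TGF-beta ligands, Tgfb1, which encodes TGF-beta 1, had a peak in MCE alone. It lay in the 5′ UTR at chr7:25687152-25687226 with a score of 8.78 (rank 1338). With that of Yap1 it was 1 of only 2 member regions with a peak midpoint in a 5′ UTR. Peaks of Smad3 and Tgfbr2 with a midpoint in the coding sequence also reached into the 5′ UTR. Tgfb2 and Tgfb3 had no peak. Inhba, which encodes the subunit of activin A, had 1 peak in the coding sequence in Pre with a score of 5.88 (rank 2104), in MCE with 7.08 (rank 2706) and in rhein with 5.47 (rank 2878), and none in Diff. The 3 peaks shared chr13:16026382-16026481 on the plus strand, shown as the only site in a TGF-beta family ligand found in several lists.
Inhba coding sequence: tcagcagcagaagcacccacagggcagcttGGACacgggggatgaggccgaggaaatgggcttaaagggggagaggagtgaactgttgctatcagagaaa
This stretch holds 1 GGAC. The lists gave these peaks the symbol B230303A05Rik, a neighbour of Inhba.

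The latent TGF-beta binding proteins hold the inactive ligand in the matrix. Ltbp1 had 1 peak just behind its stop codon in Pre (score 7.28, rank 1585) and MCE (5.67, rank 4397). Ltbp3 had 2 peaks in MCE, with scores of 6.18 and 5.39, and 2 others in the 3′ UTR in rhein, with 6.98 and 5.52. Ltbp2 had no peak.

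The receptor Tgfbr2, the type II receptor for TGF-beta, had no peak in Pre, 2 in MCE, 3 in Diff and 3 in rhein. A region in the early 3′ UTR was common to the last 3 lists, with scores of 8.43 (rank 1486) in MCE, 7.34 (rank 1859) in Diff and 5.69 (rank 2811) in rhein. A coding region at chr9:116109519-116109768 was in MCE, with a score of 9.63 (rank 1053), and with 50 bases in rhein, with 7.18 (rank 1979). A peak across the start codon, at chr9:116174999-116175073, came only from Diff, with a score of 12.03 (rank 580). Its midpoint lay just inside the coding sequence. Tgfbr3, the co-receptor betaglycan, had another pattern, with 3 peaks in Pre, none in MCE, 4 in Diff and none in rhein. It held the highest ranked member peak of all, at chr5:107106870-107106919 in the 3′ UTR in Pre, with a score of 17.99 and rank 257 of 2824, 9.10% down the list. In Diff its best peak was another 50 bases of the 3′ UTR, at chr5:107108045-107108094, with a score of 13.95 (rank 425). A single region was under peaks of both stages, around the stop codon, where a 30-base site at chr5:107109609-107109638 on the minus strand holds GGAC 2 times.
Tgfbr3 3′ UTR site: gtGGACagatGGACgccgctgcctaggtgg
Tgfbr1, the type I partner of Tgfbr2, had no peak.

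Smad3, the Smad that carries TGF-beta and activin signals to the nucleus, had 1 peak in Pre, 4 in MCE, none in Diff and 3 in rhein. With Tgfbr2 it had the most peaks of the TGF-beta members, 8 in all. The 3′ UTR peak at chr9:63648667-63648916 had the same span in MCE, with a score of 11.8 (rank 649), and rhein, with 11.7 (rank 721). In Pre it was 25 bases shorter, with 7.48 (rank 1521). Its only GGAC is shown in a 30-base site at chr9:63648763-63648792. A second region, from the end of the 5′ UTR into the coding sequence, was in MCE and rhein. Its coding part common to both lists, at chr9:63757573-63757677, begins with the start codon. Both are on the minus strand.
Smad3 3′ UTR site: tgagatggtctgtGGACtgctgcttcagac
Smad3 coding start: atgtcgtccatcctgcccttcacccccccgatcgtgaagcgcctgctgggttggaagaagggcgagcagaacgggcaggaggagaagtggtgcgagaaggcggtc
The 105 bases at the coding start hold no GGAC. The peak there scored 8.13 in MCE (rank 1693) and 6.60 in rhein (rank 2327). Another region, at the stop codon, scored 6.86 in MCE and 8.76 in rhein. The lists named Aagab beside each Smad3 peak except that at the coding start, so the symbol gives Smad3 no peak in Pre. Smad2, Smad4 and, in the BMP branch, Smad5 had none in any list.

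Of the inhibitors of TGF-beta signalling, 2 carried peaks. Ski, a corepressor that binds Smads, had the same span in the 3′ UTR, chr4:155156125-155156299, in Pre with a score of 8.03 (rank 1351), in MCE with 6.23 (rank 3804) and in rhein with 8.42 (rank 1353). A further Ski peak in the coding sequence was in MCE. Smad7, an inhibitory Smad, had a single coding peak in MCE, at chr18:75369129-75369228 with a score of 8.48 (rank 1475). Its BMP counterpart Smad6, the ubiquitin ligases Smurf1 and Smurf2, and the corepressors Skil and Tgif1 had none.

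In the BMP pathway the targets Id1 and Id3, which hold back basic helix-loop-helix factors, had peaks in the 3′ UTR. Id1 had 1 in MCE, at chr2:152737151-152737200 with a score of 6.41 (rank 3644). Id3 had 1 in Diff, with 6.38 (rank 2266), and 1 in rhein, with 5.92 (rank 2686). The Id3 peaks touched without overlapping, since that of rhein ended at 136145074 and that of Diff began at 136145075. The ligand Bmp4, the receptors Bmpr2 and Acvr1, and Id2 had no peak.

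Notch2 was the only Notch receptor with a peak. It had the most peaks of the Notch members, 2 in MCE and 4 in rhein, all in the 3′ UTR, and none in Pre or Diff. The region at chr3:98148483-98148707 had the same span in both lists, with a score of 9.92 (rank 971) in MCE and 6.80 (rank 2227) in rhein. The highest score was at chr3:98148258-98148332 in rhein, with 15.4 (rank 469), which had no counterpart in MCE. The other 3 peaks scored 4.49 in MCE and 6.09 and 8.44 in rhein. All 6 were listed as Adam30, a neighbour. The shared span holds 3 GGAC, the first of them in the site at chr3:98148535-98148564 on the plus strand.
Notch2 3′ UTR site: cccttgccatttaGGACagaacttgcctgg
Notch1 and Notch3 had no peak.

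The ligand Jag1 and the coactivator Maml1 had peaks in Pre and MCE and in neither of the other lists. Jag1 had 2 in each, at the last codons of its coding sequence, with scores of 4.26 and 4.34 in Pre, among the lowest of that list at ranks 2805 and 2775, and of 6.84 and 6.74 in MCE. Maml1 had a coding peak of score 13.9 in Pre (rank 451) and 7.17 in MCE (rank 2594), and a 3′ UTR peak of score 5.30 in MCE. The coding stretch common to both stages, at chr11:50266444-50266543 on the minus strand, holds 2 GGAC.
Maml1 coding sequence: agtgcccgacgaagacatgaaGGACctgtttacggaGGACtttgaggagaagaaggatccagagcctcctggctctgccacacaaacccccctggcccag
Hes1, a repressor and direct Notch target, had 1 peak in MCE, at chr16:30067388-30067562 across the stop codon, with a score of 5.97 (rank 4080). Jag2 and Heyl had none.

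Among the Hippo kinases, Lats1 had a coding peak at each DMSO stage and none in rhein. Its score was 5.43 (rank 2276) in Pre, 6.49 (rank 3545) in MCE and 10.0 (rank 897) in Diff, and MCE had a second one nearer the stop codon, with 7.28. Lats2 had none. Wwtr1, which encodes TAZ, the paralog of YAP, had a peak in rhein alone, at chr3:57457149-57457298 in the 3′ UTR with a score of 6.41 (rank 2423), listed under the neighbour Tm4sf4. Of the TEAD factors, Tead1 had 1 peak in each of Pre, MCE and rhein, at 3 separate places, with scores of 4.31, 5.15 and 6.98. Tead3 had 1 in Pre, at chr17:28332271-28332470 in the 3′ UTR with 11.3 (rank 697).

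The other cadherins differed from Fat1. Fat4, with the longest transcript of the members at 16109 bases, had 2 coding peaks in Pre, at chr3:38888715-38888889 with a score of 7.56 (rank 1479) and at chr3:38982200-38982249 with 6.52 (rank 1873), and none in the other lists. Dchs1 had none. Of the target genes of YAP and TAZ, Cyr61, named Ccn1 in the annotation, had 1 peak across its stop codon in MCE, at chr3:145647426-145647725 with a score of 9.26 (rank 1179). It covered 300 bases and held 6 GGAC, the most per peak among the members together with a Tgfbr3 peak of 846 bases. Ctgf, named Ccn2 there, had no peak.

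Between stages, 12 members, 80.0% of those of Pre and 60.0% of those of MCE, had a peak in both, beside 71.7% and 39.6% over all protein-coding genes. There were 3 in Pre and not MCE (Fat4, Tead3 and Tgfbr3) and 8 in MCE and not Pre (Cyr61, Hes1, Id1, Ltbp3, Notch2, Smad7, Tgfb1 and Tgfbr2). From MCE to Diff 6 of 20 stayed listed, 14 were not listed again and 2, Id3 and Tgfbr3, appeared. Over all protein-coding genes 1131 of the 2796 of MCE (40.5%) stayed listed among the 1508 of Diff. Rhein and MCE had 11 members in common, 55.0% of those of MCE and 84.6% of those of rhein, beside 45.7% and 76.3% over all genes. Id3 and Wwtr1 were in rhein and not in MCE. Jag1, Lats1, Ltbp1 and Maml1, which had a peak in both Pre and MCE, were not in rhein. Rhein and Diff had 6 members in common, 75.0% of those of Diff and 46.2% of those of rhein, beside 59.7% and 53.9%.

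Peak by peak, 14 of the 25 member peaks of Pre (56.0%) had at least 1 exonic base in common with a peak of MCE, beside 44.8% of all Pre peaks. With lists cut to equal length the member share was 32.0%. The share of all peaks at that length is not given, so no trait of the members can be read from that value. In the other direction, with the full lists, the member share was 14 of 36 (38.9%) beside 24.8%. Of the 15 member peaks of Diff, 7 (46.7%) overlapped one of MCE, beside 45.8% of all, and 8 (53.3%) one of Pre, beside 36.1%. Of the 26 of rhein, 14 (53.8%) overlapped an MCE peak, beside 53.3%, and 4 (15.4%, interval 6.15% to 33.5%) a Diff peak, beside 37.6%. Of 10 such shares, that of rhein peaks found in Diff had an interval without the value over all peaks. The interval of the MCE peaks found in Pre, 24.8% to 55.1%, began at the value over all peaks. The intervals treat peaks as independent, but the 26 rhein peaks came from 13 members, with 5 in Fat1 and 4 in Notch2. Rhein peaks of Fat1 and Id3 that touched a Diff peak without overlapping it counted as not shared.

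When overlapping peaks were merged, the members had 65 regions, of which 44 (67.7%) were in 1 list, 10 in 2, 7 in 3 and 4 (6.15%) in all 4. Over the 8701 regions of all genes, 67.7% were in 1 list and 6.47% in all 4. Recurrence in members was thus close to that elsewhere. By pathway, 2 of the 5 BMP regions and 2 of the 25 Hippo regions were in all 4 lists, and none of the 25 TGF-beta or 10 Notch regions. The Hippo region in Fat1 was joined through its Pre and MCE peaks, as its Diff and rhein peaks had no base in common. GGAC was under a peak in 15 of the 44 regions seen once, 5 of 10 seen in 2 lists, 6 of 7 seen in 3 and 3 of 4 seen in all 4. Regions in more lists can also be covered by more and longer peaks, and the part of that was not tested. The same GGAC counts over all regions are not given, so no trait of the members can be read from them.

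Each peak was placed by its midpoint, using the longest of the coding transcripts around it. Over the 4 lists, 100 of the 102 member peaks lay on a coding transcript, 2 (2.00%) in the 5′ UTR, 52 (52.0%) in the coding sequence and 46 (46.0%) in the 3′ UTR. All peaks gave 6.72%, 53.5% and 39.7%. These peaks are not independent, since a site can be listed up to 4 times. The split varied by pathway, with no test. Hippo had 30 of 39 peaks (76.9%) in the coding sequence, 19 of them from Fat1, BMP had 9 of 11 (81.8%) in the 3′ UTR, TGF-beta 21 of 36 (58.3%) and Notch 8 of 14 (57.1%). In the longest coding transcripts the coding sequence made up 65.4% of the bases for Hippo and 68.2% for Notch, 39.9% for TGF-beta and less again for BMP, whose 3′ UTRs made up 55.8%.

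Within 200 bases of the end of the coding sequence lay 25 of the 100 member peaks, beside 23.3% of all peaks. BMP had 9 of 11, all but 1 of them from Bmpr1a and Acvr2a. The 3′ UTR share of member peaks was 44.0% in Pre, 42.9% in MCE, 35.7% in Diff and 57.7% in rhein. All peaks gave between 39.1% and 40.5%. In each list the interval of the members held the value of all peaks, as in rhein, where it ran from 38.9% to 74.5%.

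**Figure D4:**
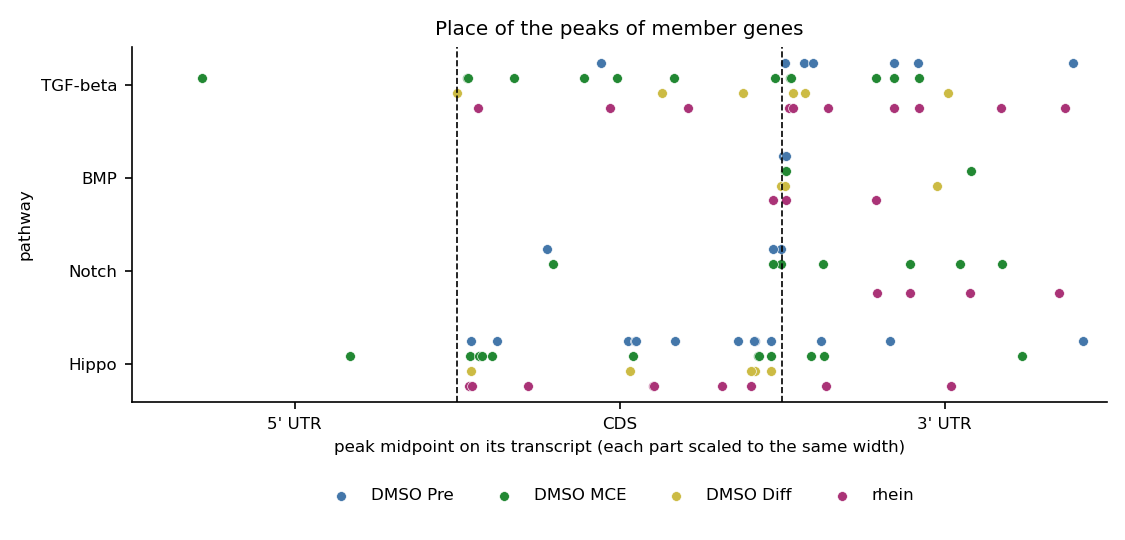
Midpoint of each member peak on its transcript, with the 5′ UTR, CDS and 3′ UTR each scaled to the same width, by pathway (rows) and list (colours). BMP peaks gather at the end of the CDS, most Hippo peaks lie in the CDS and only 2 points, from Tgfb1 and Yap1, lie in a 5′ UTR.

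GGAC, searched on the sense strand of the exonic bases under a peak, was in 12 of 25 member peaks of Pre, 16 of 36 of MCE (44.4%), 7 of 15 of Diff (46.7%) and 11 of 26 of rhein (42.3%). All peaks gave 53.2%, 52.9%, 48.2% and 52.2%. The member value was lower in each list, and its interval held the value of all peaks. GGACT, which contains GGAC, was in 20.0%, 27.8%, 20.0% and 19.2% of member peaks and in 23.3%, 23.0%, 21.0% and 22.2% of all peaks.

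Member peaks were mostly not among the best of their lists. Their median rank was 66.3% down the list in Pre, 53.3% in MCE, 41.6% in Diff and 68.5% in rhein. The 10 highest placed were from Tgfbr3 and Acvr2a, with 2 lists each, Notch2, also with 2 lists, and Bmpr1a, Smad3, Yap1 and Maml1, with 1 each. They stood between 9.10% and 18.9% down their lists. With an adjusted p-value below 0.001, which left 32.2% of all peaks in Pre, 18.8% in MCE, 31.0% in Diff and 30.7% in rhein, the member peaks left were 24.0%, 8.33%, 20.0% and 11.5%. They belonged to 6 members in Pre and 3 in each other list. Of all protein-coding genes, 2.70% in Pre, 2.83% in MCE, 2.44% in Diff and 2.61% in rhein had a peak at that threshold.

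**Figure D5:**
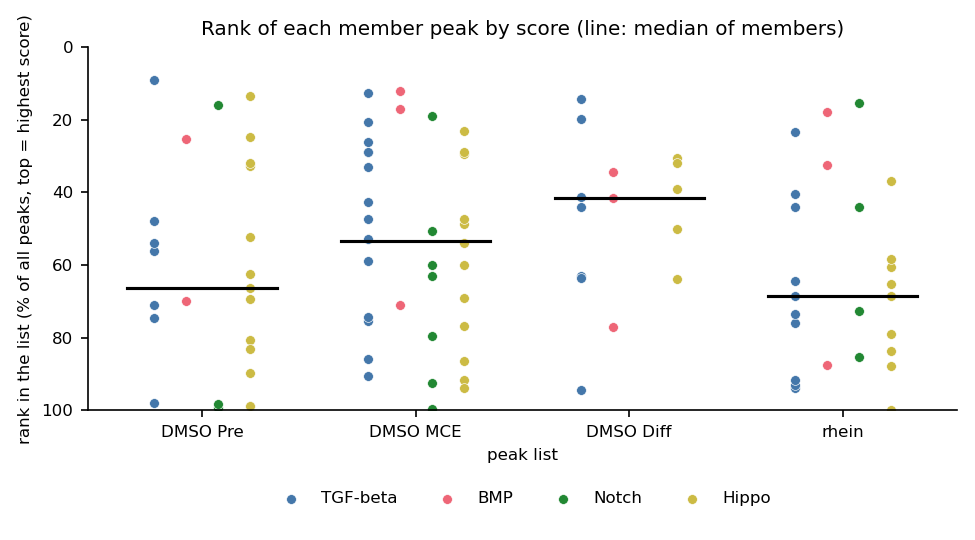
Rank of each member peak within its list, in percent of all peaks of that list with the highest score at the top, coloured by pathway, with the median of the members as a line. The medians lie between 41.6% in Diff and 68.5% in rhein, and the highest point is the Tgfbr3 peak of Pre at 9.10%.

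The symbol printed in the lists differed from the member whose exons held the peak for 4 of 25 member peaks in Pre, 10 of 36 in MCE, 1 of 15 in Diff and 10 of 26 in rhein. Conversely, the symbols Maml1 and Inhba stood beside peaks in exons of Canx and B230303A05Rik. By symbol, 11 members would have a peak in Pre, 16 in MCE, 8 in Diff and 10 in rhein.

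Other genes of the same pathways were looked up from a second list of 107 genes, of which 34 (31.8%) had a peak in any list. They were 14 of 30 for Hippo, 7 of 19 for TGF-beta, 9 of 36 for Notch and 4 of 22 for BMP. By list, 20 had a peak in Pre, 27 in MCE, 12 in Diff and 15 in rhein. All protein-coding genes had the same order of the DMSO lists, with 1544 in Pre, 2796 in MCE and 1508 in Diff, and 17.0% had a peak in any list. Of the 34 genes of the second list with a peak, 6 had one in all 4 lists, beside 15.5% of all genes with a peak. Bmp1 is a procollagen protease in spite of its name, Adam10 cuts Notch receptors, Spen is a corepressor at Notch targets, Sav1 is the scaffold of the Hippo kinases, Amotl1 binds YAP and Vgll3 binds TEAD factors.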

How the data were processed

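The 10 MeRIP-seq libraries were 1 IP and 1 input for each of 5 conditions of 3T3-L1 cells. According to the methods and the submitters' processing notes, the authors used Trim Galore 0.6.5, HISAT2 2.1.0 on mm10, Picard 2.23.5, SAMtools 1.9, exomePeak2 and ChIPseeker 1.26. The deposited value per peak, headed as a log2 fold change, was treated as a score. Which libraries entered each call is not given in the sources used here. Lists are labelled by condition, and samples were grouped by their titles.

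Members and lists of genes were chosen with earlier results of these data known. Peaks were placed on GENCODE M21 (GRCm38), on the longest same-stranded transcript, coding ones first, whose exons hold both ends. Unplaced peaks kept their span, or their ends if above 1000 bases. Of the members, 2 were matched under newer symbols. Members are named with coordinates if they have a peak in all 4 lists or in 1, hold 1 of the 10 best ranked peaks, or have most peaks in their pathway, and others by choice after their values were seen. Sequences are from GENCODE M21 transcripts. Python 3.11.15, pandas 2.3.3, SciPy 1.17.1 and Matplotlib 3.10.9 were used. The placement was tested on simulated peaks drawn on the longest coding transcript of each gene, which the rule prefers. It was not tested on peaks of shorter transcripts. Intervals are 95% Wilson intervals. Alternatives covered the symbol, strand, transcripts, thresholds, list length, overlap, place, motif and rhein list.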

Additional observations from a re-analysis of the deposited data

Results flagged for a closer look

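The difference between rhein and DMSO had opposite signs at the 2 stages. At MCE the rhein list had fewer members with a peak than DMSO, a difference of -7, and fewer member peaks, -10. At Diff it had more, by 5 members and 11 peaks. With 1 list per condition this was not tested. All protein-coding genes with a peak moved likewise, from 2796 in DMSO MCE and 1508 in DMSO Diff to 1673 in rhein. With lists cut to equal length the members were 14 in DMSO MCE and 12 in rhein, and the member peaks 19 and 23, so that the peaks turned in direction. The rhein lists of both stages were almost the same list, with 13 members and 26 member peaks each, so the sign turned with the DMSO lists, which had 20 members at MCE and 8 at Diff.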

How the results depend on the processing

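No paired analysis was possible because each condition had 1 IP and 1 input and no test was made. Of the values recomputed under an alternative, 75 stayed within 1.5 times the count or within the interval of the share, and 24 did not. The listed symbol, the ignored strand, both ends in 1 member transcript, coding transcripts only and the rhein Diff list moved none. Nor did the 50% overlap, the listed place, any base in the part or the 100-base window. Only counts and shares were compared, not the genes behind them. By symbol Bmpr1a was lost while the members with a peak in every list stayed at 4, so these were not the same genes. An adjusted p-value below 0.001, on the same unchecked reading of the score, moved most. In the DMSO lists Pre, MCE and Diff and in rhein, members with a peak became 6 in Pre, 3 in MCE, 3 in Diff and 3 in rhein, 11 in any list and 0 in every list. The share of all protein-coding genes with a peak fell as well, to 2.70% in Pre, 2.83% in MCE, 2.44% in Diff and 2.61% in rhein. At that threshold 16.7% of Pre peaks were shared with MCE and 66.7% of MCE peaks with rhein. The share was 0 for MCE and Diff in both directions, for Pre and Diff in both directions, and for rhein and Diff in both directions, and the 3′ UTR share of MCE became 100%. Few peaks remained there, between 3 and 6 per list. With lists of equal length, 2824 peaks, members with a peak were 15 in Pre, 14 in MCE, 8 in Diff and 12 in rhein, which ended the lead of MCE over Pre. Of the member peaks of Pre, 32.0% were then shared with MCE, and the share of all peaks at that length is not given. GGACT in place of GGAC gave 20.0% in Pre, 27.8% in MCE, 20.0% in Diff and 19.2% in rhein, since it asks for 1 more base. Against genes with a peak in any list, the shares over all genes were 41.5%, 75.1%, 40.5% and 44.9%. Depth per library is unknown, so it is not shown whether a peak was missed for lack of reads.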
